A study of Mus musculus with 16 samples.

Results

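The 10 genes described here handle vitamin A and were followed in mouse colon organoids after disruption of Cdx2, the homeobox transcription factor that sets intestinal identity. The 10 genes were Aldh1a1, Aldh1a2, Aldh1a3, Adh1, Rbp2, Rdh10, Dhrs3, Rarb, Crabp2 and Bco1, chosen by name for their place in retinoid metabolism, out of 54123 genes with summed reads. The choice was made with earlier results of these data known. Expression was measured by RNA-seq in 16 libraries, from proximal or distal colon, with a Scramble-sgRNA or a Cdx2-sgRNA, and grown in WENR-plus or in WENR-minus, which makes 8 groups of 2 replicates. WENR-plus medium holds the niche factors Wnt3a, EGF, Noggin and R-spondin, and WENR-minus medium lacks them. All organoids came from female mice 8 weeks old with a heterozygous Cre-inducible Braf V600E allele and a heterozygous tdTomato reporter, and the sources used here describe no Cre step for these libraries. The region was the first or the last stretch of the colon, the guides came with lentiviral Cas9, and all cultures were in the fourth month. Each Cdx2-sgRNA culture was grown from a single cell and carried frameshifts in both Cdx2 alleles, whereas no such cloning was described for Scramble organoids, so the effects of the guide and of choosing a clone cannot be told apart. RNA was taken after 2 days in WENR-plus followed by 3 days in the medium named.

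Vitamin A reaches the gut as retinyl esters or as carotenoids. BCO1, the enzyme encoded by Bco1, cleaves beta-carotene to retinal, and RBP2 is the retinol carrier of the absorptive cell. Retinol is oxidised to retinal by dehydrogenases such as RDH10 and ADH1, DHRS3 turns retinal back to retinol, and the ALDH1A enzymes oxidise retinal irreversibly to retinoic acid. CRABP2 carries retinoic acid to its nuclear receptors, of which RARB is one, and Rarb is itself a known target of retinoic acid. In the intestine, the homeobox repressor ISX is known to hold down Bco1 and Scarb1, the gene of a carotenoid and lipid uptake receptor.

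Library depth ranged from 12465194 to 18922143 reads. Levels are given as CPM, counts scaled to a common library size with TMM factors, and levels of different genes are compared only as TPM, the measure per length that the authors deposited. Of 15289 genes tested, those with an adjusted p under 0.05 and a log2 fold change over 1 in size were called changed. Epithelial markers were high in every library, at a sum over 7 genes of 3972 to 5396 CPM in WENR-plus and 12088 to 18059 CPM in WENR-minus, and the sums of the mesenchymal (7 genes), endothelial (3 genes) and glial or neuronal (3 genes) markers were at most 7.87, 2.00 and 1.83 CPM, with Dcn and Lum at 0 reads in all 16 libraries. The sum of 6 immune markers reached 20.3 CPM, nearly all of it Csf1r in proximal Cdx2-sgRNA libraries. Goblet markers (5 genes) summed to 31.0 to 63.2 CPM in the 4 proximal Cdx2-sgRNA libraries against 687 to 13244 CPM in the other 12, and enteroendocrine markers (4 genes) to 0.846 to 1.78 CPM against 50.1 to 445 CPM. Colonocyte markers (7 genes) summed to 136 to 654 CPM in WENR-plus, to 6780 to 15993 CPM in WENR-minus outside the proximal Cdx2-sgRNA group, and to 519 to 1591 CPM in that group. Stem and crypt-bottom markers (5 genes) summed to 324 to 546 CPM in WENR-plus and to 92.2 to 193 CPM in WENR-minus. In these bulk libraries, fewer cells of a type and less RNA per cell cannot be told apart, and the part of these cell types in the results below was not tested. The RNA of Cdx2 itself was lower in proximal Cdx2-sgRNA organoids, with a log2 fold change of -1.29 in WENR-minus (adjusted p 0.000679) and -2.09 in WENR-plus (adjusted p 5.48e-05). In distal organoids its level was 106 ± 28.5 CPM (SD, n = 2) with the Cdx2-sgRNA against 111 ± 1.69 CPM with Scramble in WENR-minus (adjusted p 0.876, edgeR quasi-likelihood test). A frameshift need not lower a transcript, so this count does not check the distal labels.

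Of the 10 genes, 8 had enough reads to be tested, and Aldh1a2 and Crabp2 did not. Nearly all reads fell on a single protein-coding transcript for most of them. The exception was Dhrs3, where Dhrs3-207 held 64.3% of the reads. On GRCm38 (GENCODE vM21), the tested genes lie at chr19:20492715-20643465 (Aldh1a1), chr3:138260991-138290698 (Adh1), chr4:144892827-144928209 (Dhrs3), chr1:16105774-16133734 (Rdh10), chr9:98486115-98509781 (Rbp2), chr8:117095854-117133720 (Bco1), chr14:16430839-16819156 (Rarb, minus strand) and chr7:66390890-66427517 (Aldh1a3, minus strand). Aldh1a1 shares reads with its near-identical neighbour Aldh1a7, and its estimated count lay over 0.01 from a whole number in 81.2% of libraries, so that the split between this pair is uncertain.

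RefSeq promoter windows (GRCm38.p6) matched 7 of the 10 genes and were searched on both strands for 2 kinds of letters. The first were direct repeats of a 6-base nuclear receptor element (AGGTCA or GGGTCA or AGTTCA or GGTTCA) spaced by 5 bases (DR5), 2 bases (DR2) or 1 base (DR1, added after the sequences had been seen), and the second were the Cdx-type motifs TTTATNG and TTTATTA. Among the 250 bases before each of 32851 RefSeq start sites, DR5 occurred in 0.0883%, DR2 in 0.174%, DR1 in 0.164%, TTTATNG in 9.81% and TTTATTA in 4.52%. The windows below are shown because these genes carried the largest differences, 5′ to 3′ on the gene's strand, with the matched letters in capitals. Those of Rbp2, Bco1, Adh1 and Dhrs3 end at the start of the transcript that held most reads, and of Rarb only the element is printed. The Rbp2 window chr9:98490287-98490536 holds TTTATNG on the minus strand, 16 to 10 bases before the start, in letters that also spell TATAAA, the core of a TATA box.
Rbp2: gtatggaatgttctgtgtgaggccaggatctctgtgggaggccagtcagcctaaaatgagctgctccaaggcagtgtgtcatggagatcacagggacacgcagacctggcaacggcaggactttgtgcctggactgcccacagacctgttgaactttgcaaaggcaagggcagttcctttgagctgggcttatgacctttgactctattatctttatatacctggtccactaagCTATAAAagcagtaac
The Bco1 window chr8:117095615-117095853 holds TTTATNG and, 56 to 44 bases before the RefSeq start, a DR1, both on the minus strand.
Bco1: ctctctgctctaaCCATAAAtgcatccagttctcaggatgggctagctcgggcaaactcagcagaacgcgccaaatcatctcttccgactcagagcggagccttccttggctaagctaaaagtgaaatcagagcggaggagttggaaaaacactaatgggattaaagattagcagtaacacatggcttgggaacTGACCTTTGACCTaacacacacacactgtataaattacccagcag
The Adh1 window chr3:138277335-138277493 holds TTTATTA on the minus strand.
Adh1: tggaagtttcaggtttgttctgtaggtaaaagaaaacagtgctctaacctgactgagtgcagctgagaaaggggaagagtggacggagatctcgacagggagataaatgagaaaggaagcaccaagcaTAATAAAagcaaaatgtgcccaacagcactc
The Dhrs3 window chr4:144892577-144892826 holds TTTATNG on the minus strand.
Dhrs3: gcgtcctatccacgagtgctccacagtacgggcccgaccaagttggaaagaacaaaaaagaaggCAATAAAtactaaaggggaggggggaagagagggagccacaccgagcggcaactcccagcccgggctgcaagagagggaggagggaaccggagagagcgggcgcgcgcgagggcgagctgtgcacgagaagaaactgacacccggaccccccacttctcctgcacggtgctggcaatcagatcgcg
The Rarb element is a DR5 at chr14:16575513-16575529 on the minus strand, 53 to 37 bases before the RefSeq start and 14 to 30 bases inside Rarb-201, the transcript with 95.4% of the Rarb reads, which starts further upstream.
Rarb: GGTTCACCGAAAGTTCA
None of the searched letters was in the windows of Aldh1a1 or Aldh1a2, nor in the other windows of Dhrs3. A match is a description of letters and was not tested as a binding site.

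**Figure D1:**
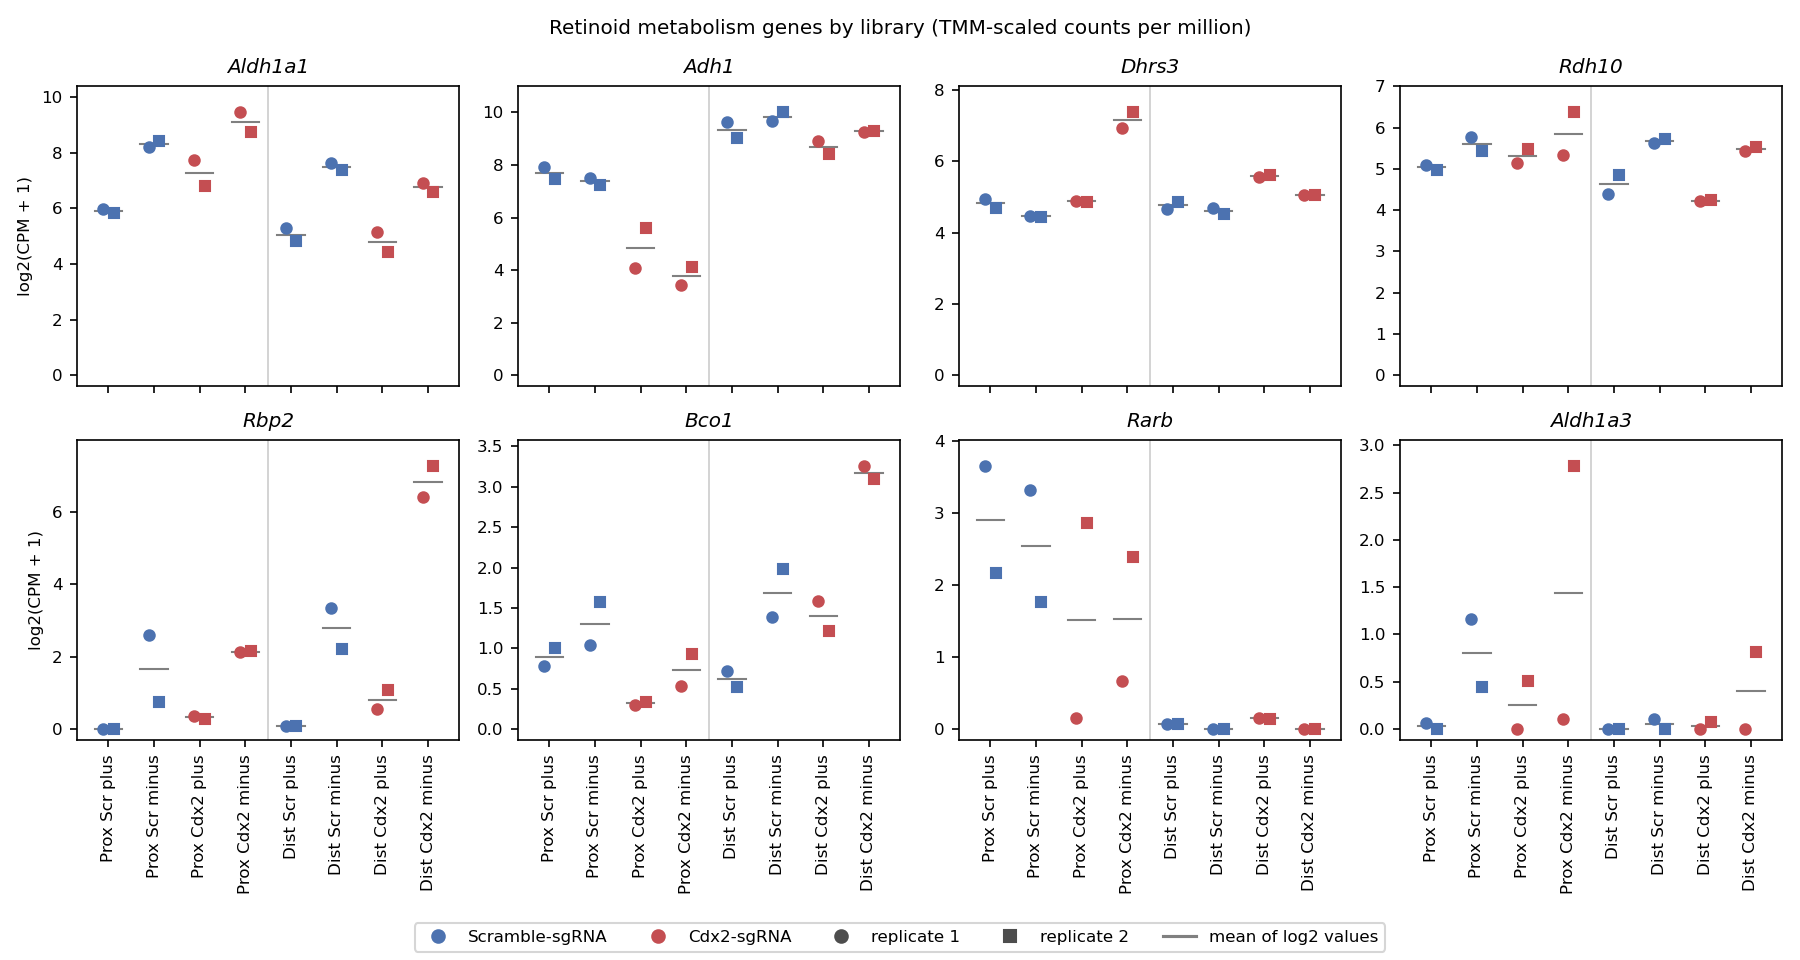
Level of the 8 tested genes in each library as log2(CPM + 1), by region, guide and medium (points, libraries; circles, replicate 1; squares, replicate 2; lines, mean of the log2 values). Adh1 is low in the 4 proximal Cdx2-sgRNA libraries (9.80 to 47.7 CPM), Dhrs3 is high in proximal Cdx2-sgRNA WENR-minus (121 and 165 CPM) and Rbp2 in distal Cdx2-sgRNA WENR-minus (84.4 and 153 CPM).

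Adh1 and Aldh1a1, which act on retinol and retinal, were the most abundant of the 10 genes. On the TPM scale, Adh1 averaged 398 TPM over the 16 libraries and Aldh1a1 138 TPM, followed by Dhrs3 at 52.4, Rbp2 at 37.3 and Rdh10 at 15.8 TPM. Rarb averaged 1.29 TPM, Bco1 1.1 TPM and Aldh1a3 0.294 TPM. The order depended on the group. In distal Scramble organoids in WENR-plus, Adh1 stood at 816 ± 220 TPM (SD, n = 2) and Aldh1a1 at 26.9 ± 5.76 TPM, whereas in proximal Cdx2-sgRNA organoids in WENR-minus Aldh1a1 stood at 476 ± 203 TPM and Dhrs3 at 180 ± 18.8 TPM, both above Adh1 at 15.7 ± 3.52 TPM. Rbp2 spanned the widest range, from 0 reads in both proximal Scramble WENR-plus libraries to 198 and 322 TPM in distal Cdx2-sgRNA WENR-minus.

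The first comparison asked how loss of Cdx2 altered these genes in proximal organoids. In WENR-minus medium, Adh1 fell and Dhrs3 rose, that is, 1 of the 8 genes in each direction, where 12.1% of all tested genes were called lower and 9.04% higher. Adh1 was at 182 and 149 CPM in the Scramble libraries and at 9.80 and 16.4 CPM in the Cdx2-sgRNA libraries. The groups did not overlap, and the level fell by 3.65 on the log2 scale (SE 0.47, adjusted p 0.000215, edgeR quasi-likelihood test with Benjamini-Hochberg adjustment, as for all adjusted p-values here). Dhrs3, the reductase that returns retinal to retinol and a known target of retinoic acid, was at 21.2 and 20.6 CPM with Scramble and at 121 and 165 CPM with the Cdx2-sgRNA, a rise of 2.78 in log2 (SE 0.17, adjusted p 9.9e-07). Its replicates differed by 1.01-fold to 1.36-fold over the 8 groups. Aldh1a1 was at 297 and 346 CPM against 702 and 430 CPM, which did not overlap but did not pass the test (log2 fold change 0.82, SE 0.34, adjusted p 0.0906). Rdh10 stood at 53.8 and 42.2 CPM against 39.3 and 81.8 CPM, and Rbp2 at 5.02 and 0.677 CPM against 3.34 and 3.49 CPM, with overlapping groups for both. Rbp2 was called higher without Scramble replicate 1 (log2 fold change 2.35, adjusted p 0.0452), and the value turned to -0.57 without Scramble replicate 2. Bco1, with 6 to 38 reads per library, was at 1.05 and 1.98 CPM against 0.445 and 0.899 CPM (adjusted p 0.105).

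In WENR-plus medium, 1 of the 8 genes rose and 2 fell in proximal organoids, where 6.93% of all tested genes were called higher and 8.94% lower. Adh1 went from 242 and 178 CPM to 15.9 and 47.7 CPM, a fall of 2.72 on the log2 scale (SE 0.45, adjusted p 0.00163), with a log2 fold change of -3.72 without Cdx2-sgRNA replicate 2. Aldh1a1 went from 62.3 and 56.5 CPM to 213 and 111 CPM, a rise of 1.45 in log2 (SE 0.35, adjusted p 0.0116). Bco1 went from 0.717 and 1.01 CPM to 0.232 and 0.264 CPM, which rests on 4 and 5 reads in the Cdx2-sgRNA libraries (log2 fold change -1.76, SE 0.56, adjusted p 0.0400). The Aldh1a1 call was lost without Scramble replicate 1 (adjusted p 0.0527), Scramble replicate 2 (adjusted p 0.0712) or Cdx2-sgRNA replicate 1 (adjusted p 0.0964), with log2 fold changes of 1.56, 1.40 and 0.90. The Bco1 call was lost without any 1 of the 4 libraries compared (log2 fold change -1.94 to -1.48). With all libraries kept, it was also lost under DESeq2 (adjusted p 0.0617), without a filter on low counts (adjusted p 0.0978) and with length-scaled counts (adjusted p 0.0547). The same held in a fit of only the libraries compared (adjusted p 0.113). Rbp2, at 0 and 0 reads with Scramble and 5 and 4 reads with the Cdx2-sgRNA, was not called (adjusted p 0.182), but was under DESeq2 (adjusted p 0.0224) and without the filter (adjusted p 0.00264). Dhrs3, at 29.6 and 25.0 CPM with Scramble and 28.6 and 28.2 CPM with the Cdx2-sgRNA, overlapped between guides in this medium. Aldh1a7 moved with Aldh1a1, rising by 1.76 in log2 (SE 0.37, adjusted p 0.00581).

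In distal organoids in WENR-minus, Rbp2 and Bco1 rose and none of the 8 genes fell, where 2.24% of all tested genes were called higher and 3.00% lower. Rbp2 was at 9.16 and 3.66 CPM (119 and 51 reads) with Scramble and at 84.4 and 153 CPM (997 and 1827 reads) with the Cdx2-sgRNA, a rise of 4.21 in log2 (SE 0.74, adjusted p 0.00919). Bco1 was at 1.62 and 2.94 CPM (21 and 41 reads) and at 8.55 and 7.53 CPM (101 and 90 reads), a rise of 1.81 in log2 (SE 0.47, adjusted p 0.0360). Both genes were higher in each Cdx2-sgRNA library than in either Scramble library. The Rbp2 rise was 5.01 without Scramble replicate 1, and its call was lost without Scramble replicate 2 (log2 fold change 3.69, adjusted p 0.0914) or Cdx2-sgRNA replicate 2 (3.71, adjusted p 0.0598), and the Bco1 call without any 1 of the 4 libraries (log2 fold change 1.45 to 2.31, adjusted p 0.100 to 0.188) and in a fit of only these libraries (adjusted p 0.053). The summed colonocyte markers moved the same way, from 7071 and 11191 CPM with Scramble to 14903 and 15993 CPM with the Cdx2-sgRNA, and their part in these differences was not tested. Adh1 was at 816 and 1027 CPM against 616 and 628 CPM (log2 fold change -0.57, SE 0.42, adjusted p 0.431). In distal WENR-plus none of the 8 genes was called, where 0.137% of all tested genes were called higher and 0.124% lower. DESeq2 called none of them either, where it called 1.14% of all genes, and without a filter on low counts Rbp2 was called (adjusted p 6.16e-06), where 2.14% of all genes were. Rbp2 had 1 and 1 reads with Scramble and 8 and 21 reads with the Cdx2-sgRNA, a ratio of 15.4 (exact 95% counting interval 3.89 to 133, adjusted p 0.637 in the main test), or 8.84 without Cdx2-sgRNA replicate 2. Of the 8 genes, Dhrs3 came nearest to a call in the main test, at 24.4 and 28.2 CPM against 46.1 and 48.1 CPM (log2 fold change 0.84, SE 0.16, adjusted p 0.0643).

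**Figure D2:**
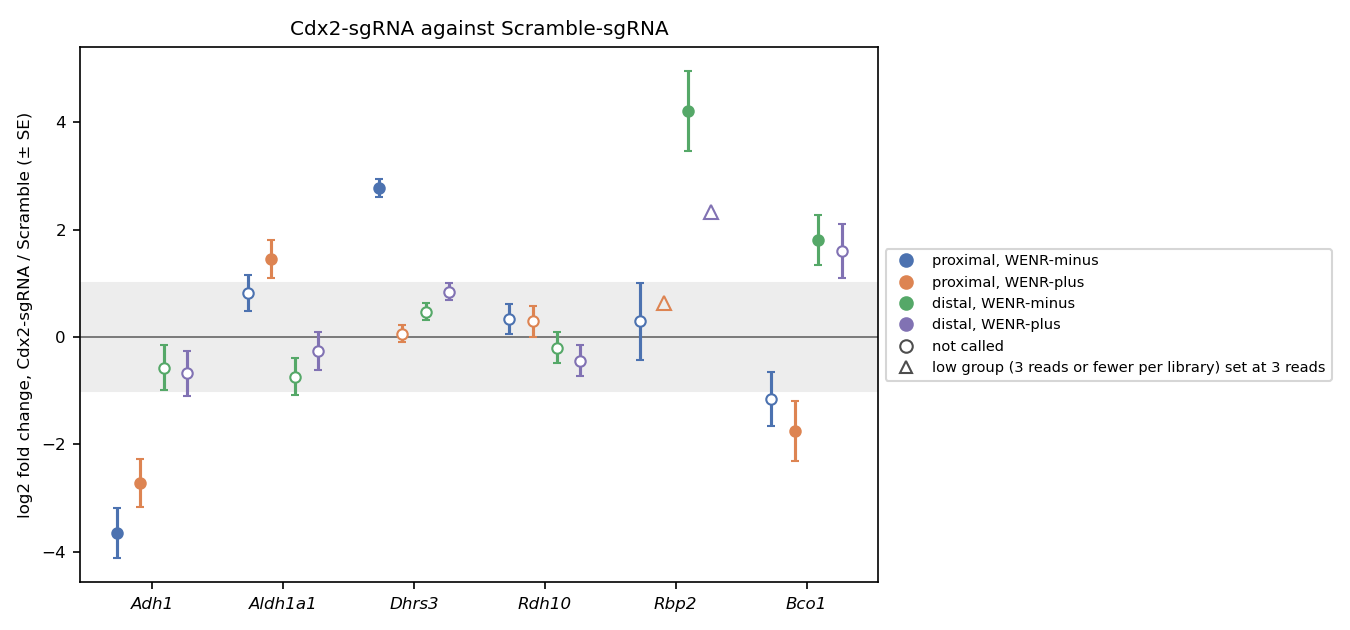
Log2 fold change of 6 members, Cdx2-sgRNA over Scramble, with its standard error, in each region and medium (filled circles, called; open circles, not called; triangles, a group with 3 reads or fewer in each library set at 3 reads; grey band, log2 fold change within 1). Adh1 lies at -3.65 and -2.72 in proximal organoids and within the band in distal organoids, and Bco1 lies below 0 in proximal and above 0 in distal organoids.

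The difference between regions was itself tested. In WENR-minus, the Cdx2-sgRNA effect differed between proximal and distal organoids for 5 of the 8 genes, where 14.3% of all tested genes differed. The proximal effect minus the distal effect on the log2 scale was -3.08 for Adh1 (SE 0.62, adjusted p 0.00668), 2.31 for Dhrs3 (SE 0.23, adjusted p 7.85e-05), 1.55 for Aldh1a1 (SE 0.48, adjusted p 0.0472), -3.93 for Rbp2 (SE 1.00, adjusted p 0.0239) and -2.96 for Bco1 (SE 0.69, adjusted p 0.0143). Those of Adh1 and Dhrs3 passed without any 1 of the libraries compared. Aldh1a1 no longer passed without any 1 of 7 of the 8 libraries (adjusted p 0.0734 to 0.139, log2 difference 1.19 to 1.74), the exception being proximal Cdx2-sgRNA replicate 2. Rbp2 did not pass without proximal Scramble replicate 1, where the difference shrank to -1.86 (adjusted p 0.203), nor without either proximal Cdx2-sgRNA library or replicate 2 of either distal group (adjusted p 0.0587 to 0.0946), nor in a fit of only the libraries compared (adjusted p 0.0606), and it was -4.78 without proximal Scramble replicate 2 and -4.73 without distal Scramble replicate 1. Bco1 did not pass without proximal Scramble replicate 2 (-2.44, adjusted p 0.0509), and was -3.57 without proximal Cdx2-sgRNA replicate 2. In WENR-plus, Bco1 alone of the 8 genes differed (-3.36, SE 0.75, adjusted p 0.0253), where 4.98% of all tested genes did, and with the replicate number as a block Aldh1a1 differed too. That Bco1 call was lost without any 1 of 6 of the 8 libraries (adjusted p 0.0537 to 0.100) and in a fit of only these libraries (adjusted p 0.066). DESeq2 and the fit without a filter on low counts called Adh1 and Aldh1a1 too, where they called 8.07% and 6.79% of all genes.

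The second comparison asked how the genes changed when the niche factors were withdrawn, at the same guide and region. Aldh1a1 and Rbp2 rose in all 4 cultures, and no member was called lower in any. Adh1 in proximal Cdx2-sgRNA organoids, at 15.9 and 47.7 CPM in WENR-plus and 9.80 and 16.4 CPM in WENR-minus, came nearest (log2 fold change -1.27, SE 0.44, adjusted p 0.0807). It was called lower under DESeq2 (adjusted p 0.0202), without a filter on low counts (adjusted p 7.7e-07), with at least 10 counts in every library (adjusted p 0.0495), with both media of a culture as a block (-1.16, adjusted p 0.0127) and without WENR-plus replicate 1 (-1.85, adjusted p 0.00892), whereas it was -0.27 without WENR-plus replicate 2 (adjusted p 0.749). In proximal Scramble organoids 2 of the 8 genes were called higher, where 8.73% of all tested genes were called higher and 8.24% lower, and in proximal Cdx2-sgRNA organoids 3 were, against 3.42% higher and 2.98% lower. In distal Scramble organoids 4 of the 8 genes were called higher, against 12.2% higher and 14.2% lower, and in distal Cdx2-sgRNA organoids 4 were, against 14.9% higher and 18.1% lower. Aldh1a1 rose from 62.3 and 56.5 CPM to 297 and 346 CPM in proximal Scramble organoids (log2 fold change 2.44, SE 0.36, adjusted p 0.000862). The rise was 1.80 in proximal Cdx2-sgRNA (adjusted p 0.0083), 2.46 in distal Scramble (adjusted p 0.000355) and 1.98 in distal Cdx2-sgRNA organoids (adjusted p 0.000789), and none of these groups overlapped. Its neighbour Aldh1a7 was called only in the distal cultures, at 1.42 and 1.16 on the log2 scale. The proximal Cdx2-sgRNA call for Aldh1a1 was lost without WENR-plus replicate 2 (log2 fold change 1.41, adjusted p 0.0712).

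Rbp2, the retinol carrier of absorptive cells, went from 0 and 0 reads in WENR-plus to 81 and 13 reads in WENR-minus in proximal Scramble organoids, which is at least 17.8-fold higher when WENR-plus is set at 3 reads per library (adjusted p 0.00497). This limit rests on replicate 1, and it is 4.22-fold without that library and 31.3-fold without replicate 2. In distal Scramble organoids it went from 1 and 1 reads to 119 and 51 reads, a ratio of 122 with an exact 95% counting interval of 33.2 to 1013 (adjusted p 0.00123). The ratio was 70.5 without WENR-minus replicate 1. Such intervals, also for the genes below, cover counting error only. In distal Cdx2-sgRNA organoids it went from 8 and 21 reads (0.459 and 1.11 CPM) to 997 and 1827 reads (84.4 and 153 CPM), a rise of 7.21 in log2 (SE 0.88, adjusted p 9.21e-05), or 8.03 without WENR-plus replicate 2. In proximal Cdx2-sgRNA organoids it went from 5 and 4 reads to 45 and 66 reads (log2 fold change 3.74, SE 0.96, adjusted p 0.0302), a call lost without any 1 of the 4 libraries (adjusted p 0.071 to 0.167). The colonocyte and epithelial marker sums were also higher, and the stem and crypt-bottom sum lower, in every WENR-minus library than in the WENR-plus libraries of its culture, and their part in the medium results was not tested.

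Bco1 rose in WENR-minus in distal organoids, from 0.651 and 0.430 CPM to 1.62 and 2.94 CPM with Scramble (log2 fold change 2.06, SE 0.51, adjusted p 0.00733) and from 2.01 and 1.32 CPM to 8.55 and 7.53 CPM with the Cdx2-sgRNA (2.27, SE 0.48, adjusted p 0.00233). Rdh10, the main retinol dehydrogenase of the embryo, rose from 19.9 and 28.0 CPM to 48.6 and 52.0 CPM in distal Scramble (1.07, SE 0.29, adjusted p 0.012) and from 17.5 and 17.9 CPM to 42.1 and 45.2 CPM in distal Cdx2-sgRNA organoids (1.30, SE 0.29, adjusted p 0.00335). The distal Scramble calls of both genes were lost without WENR-minus replicate 2 (adjusted p 0.066 for Bco1 and 0.0532 for Rdh10). Bco1 was also lost without WENR-plus replicate 2 (adjusted p 0.059) and Rdh10 without WENR-plus replicate 1 (adjusted p 0.0909). In proximal organoids the log2 fold changes were 0.82 and 1.43 for Bco1 and 0.59 and 0.64 for Rdh10 (Scramble and Cdx2-sgRNA in turn), and none was called. The Cdx2-sgRNA value of Bco1 fell from 1.43 to 0.82 without WENR-minus replicate 2. Rdh10 was called in proximal Cdx2-sgRNA organoids without WENR-minus replicate 1 (1.1), whereas its log2 fold change was 0.01 without WENR-minus replicate 2.

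Dhrs3 responded to the medium in a way that depended on guide and region. In proximal Cdx2-sgRNA organoids it rose from 28.6 and 28.2 CPM in WENR-plus to 121 and 165 CPM in WENR-minus (log2 fold change 2.33, SE 0.16, adjusted p 0.000224). In proximal Scramble organoids it was at 29.6 and 25.0 CPM and then at 21.2 and 20.6 CPM (-0.39, SE 0.16, adjusted p 0.0917). The difference between these effects was 2.72 (SE 0.23, adjusted p 0.000723), the only one among the 8 genes in the main test, where 3.60% of all tested genes differed. Rbp2 differed too with the culture as a block (log2 difference -4.94, adjusted p 0.0184) and without a filter on low counts (-4.82, adjusted p 0.0222). Both proximal Scramble WENR-plus libraries held 0 Rbp2 reads, so the size of the Scramble rise is only a limit. A smaller rise with the Cdx2-sgRNA therefore does not follow. In distal Cdx2-sgRNA organoids Dhrs3 was at 46.1 and 48.1 CPM in WENR-plus and at 32.4 and 32.2 CPM in WENR-minus, a log2 difference of -0.54 (SE 0.16, adjusted p 0.0151) that is under the fold threshold. The proximal effect minus the distal effect in Cdx2-sgRNA organoids, a test added after these values had been seen, was 2.88 (SE 0.23, adjusted p 0.000114). It passed for 2 of the 8 genes, where 17.6% of all tested genes passed, and Rbp2 passed too under DESeq2 (adjusted p 0.0149), without a filter on low counts, with the culture as a block and in a fit of only the libraries compared (adjusted p 1.8e-05, 0.00156 and 0.0311). The second gene in the main test was Adh1 (-1.86, SE 0.61, adjusted p 0.05 after rounding), whose call was lost with the replicate number as a block (adjusted p 0.0578), with length-scaled counts (adjusted p 0.0558), in a fit of only the libraries compared (adjusted p 0.12) and without any 1 of 6 of the 8 libraries (adjusted p 0.0645 to 0.239). Its difference shrank to -0.86 without proximal Cdx2-sgRNA WENR-plus replicate 2. In distal organoids no gene of the 15289 tested differed in its medium response between guides (0.00%) in the main test, where 1457 had an unadjusted p under 0.05. DESeq2 called 120 genes, edgeR with the replicate number as a block 8, with the culture as a block 48, with at least 10 counts in every library 4 and without a filter on low counts 354. When both media of a culture were treated as a block, 5 of the 8 genes were called in proximal Cdx2-sgRNA organoids, with Adh1 and Aldh1a3 added, and 10.1% of all genes were. Fitted on the 4 proximal Cdx2-sgRNA libraries alone, which leaves 2 residual degrees of freedom, no gene of 13518 was called, members included (adjusted p 0.122 for Dhrs3 and Rbp2, 0.138 for Aldh1a1).

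**Figure D3:**
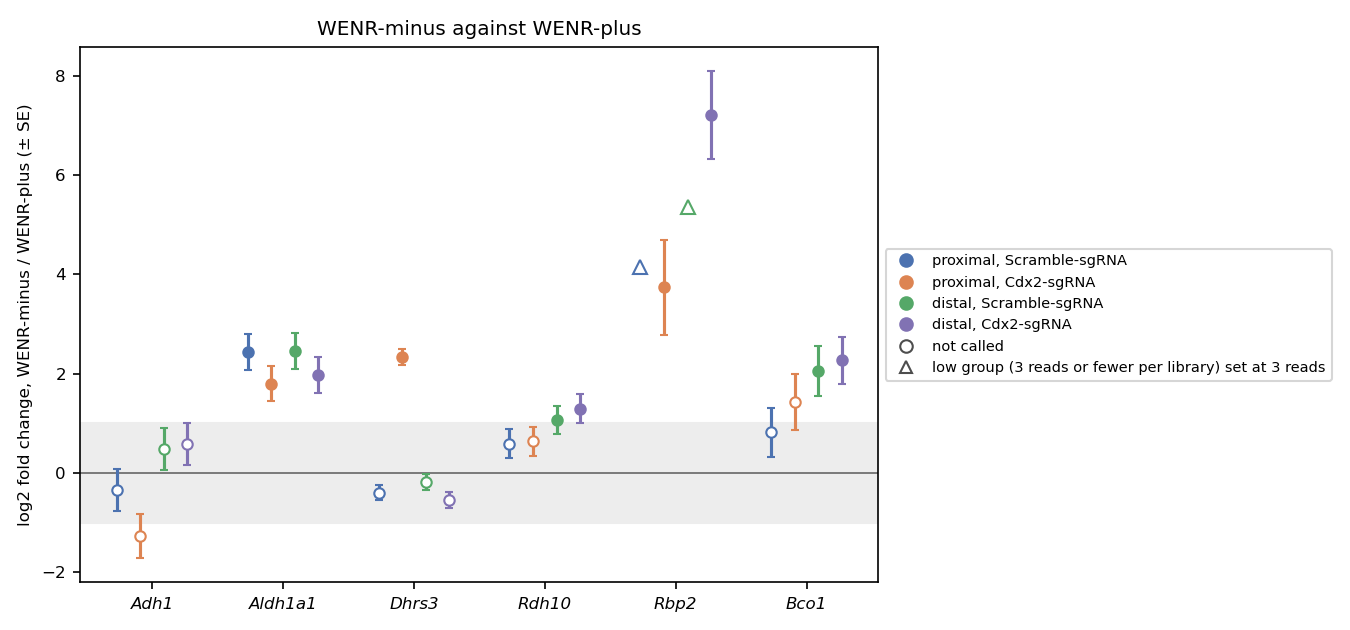
Log2 fold change of 6 members, WENR-minus over WENR-plus, with its standard error, in each of the 4 cultures (filled circles, called; open circles, not called; triangles, a group with 3 reads or fewer in each library set at 3 reads; grey band, log2 fold change within 1). Aldh1a1 lies between 1.80 and 2.46 in all 4, and Dhrs3 rises above the band only in proximal Cdx2-sgRNA organoids (2.33).

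The third comparison set proximal against distal organoids. With Scramble, Adh1 was the 1 member called, lower in proximal organoids in WENR-minus, and no member was higher, where 3.20% of all tested genes were called lower and 2.88% higher. It was at 182 and 149 CPM in proximal and 816 and 1027 CPM in distal libraries (log2 fold change -2.48, SE 0.44, adjusted p 0.00678), a call lost without proximal replicate 2 (-2.35, adjusted p 0.077). Rbp2, at 5.02 and 0.677 CPM against 9.16 and 3.66 CPM, was called lower in proximal organoids without a filter on low counts (-1.20, adjusted p 0.0016). It was also called lower without proximal replicate 1 (-3.27), whereas its log2 fold change was -0.35 without proximal replicate 2 and -0.38 without distal replicate 1. In WENR-plus no member was called with Scramble, where 0.680% of all tested genes were called higher and 1.07% lower. There Adh1 was at 242 and 178 CPM against 797 and 526 CPM (-1.66, SE 0.43, adjusted p 0.0805), and DESeq2 (adjusted p 0.00396), the fit without a filter on low counts (adjusted p 3.45e-12) and that of only the libraries compared (adjusted p 0.0474) called it. The fit without the filter gave nearly the same fold change (-1.68), so its far smaller p-value does not come from a larger difference. The region difference with Scramble was not found to depend on the medium for any member, where 0.0719% of all tested genes passed that test.

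With the Cdx2-sgRNA more members differed between regions. In WENR-minus, 3 of the 8 genes were higher and 3 lower in proximal organoids, where 18.1% of all tested genes were called higher and 16.5% lower. Adh1 was at 9.80 and 16.4 CPM in proximal against 616 and 628 CPM in distal libraries (log2 fold change -5.56, SE 0.52, adjusted p 1.11e-05). The log2 fold change was -5.11 for Rbp2 (SE 0.77, adjusted p 0.000413) and -3.54 for Bco1 (SE 0.52, adjusted p 0.000246), or -4.18 for Bco1 without proximal replicate 2. Aldh1a1 was higher by 2.39 (SE 0.36, adjusted p 0.000283), Dhrs3 by 2.15 (SE 0.16, adjusted p 2.91e-06), and Rarb was the sixth. In WENR-plus, 2 of the 8 genes were higher and 2 lower, where 7.40% of all tested genes were called higher and 9.57% lower. Aldh1a1 was higher by 2.57 (SE 0.36, adjusted p 0.000538) and Rdh10 by 1.14 (SE 0.29, adjusted p 0.014), while Adh1 was lower (log2 fold change -3.70, SE 0.47, adjusted p 0.000281, and -4.70 without proximal replicate 2), as was Bco1 (-2.71, SE 0.55, adjusted p 0.00441). The Rdh10 call was lost without proximal replicate 2 (log2 fold change 0.96, adjusted p 0.0873), distal replicate 1 (adjusted p 0.083) or distal replicate 2 (adjusted p 0.0765). Rbp2 was called lower in proximal organoids only without a filter on low counts (-1.59, adjusted p 0.0102). Its log2 fold change in the main test, -1.64, was -0.86 without distal replicate 2. Dhrs3 had the opposite sign here, at -0.73 (SE 0.16, adjusted p 0.00633), under the fold threshold. Goblet and enteroendocrine markers were low in the same proximal Cdx2-sgRNA libraries, as given above.

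**Figure D4:**
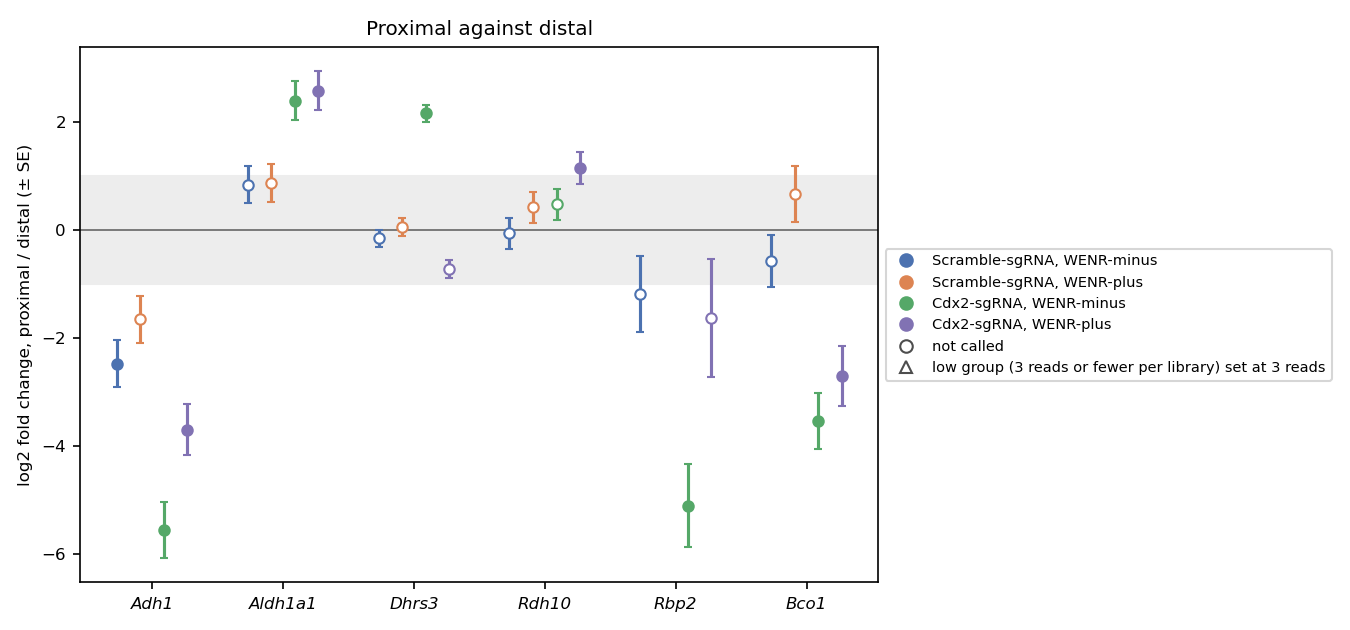
Log2 fold change of 6 members, proximal over distal, with its standard error, for each guide and medium (filled circles, called; open circles, not called; grey band, log2 fold change within 1; no point where both groups had 3 reads or fewer). Adh1 lies below 0 in all 4 comparisons, from -1.66 to -5.56, and Aldh1a1 lies above 0, from 0.83 to 2.57.

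Rarb, a retinoic acid receptor and target gene with a DR5 in its RefSeq promoter window, was read almost only in proximal organoids. Its 8 distal libraries had 0 to 2 reads. The proximal Scramble libraries had 145 and 46 reads in WENR-minus and 243 and 59 reads in WENR-plus, which puts proximal above distal by at least 25.5-fold in WENR-minus (adjusted p 0.0541, 10.8-fold without proximal replicate 1 and 40.3-fold without proximal replicate 2). In WENR-plus, against 2 distal reads, the ratio was 154 (exact 95% interval 42.3 to 1277, adjusted p 0.12) and 67.3 without proximal replicate 1. Neither passed the main test, whereas DESeq2, the fit without a filter on low counts and the fit of only the libraries compared called both. The proximal Cdx2-sgRNA libraries had 8 and 80 reads in WENR-minus and 2 and 119 reads in WENR-plus, so that the first replicate was near the distal level and the second was not. The WENR-minus difference was called, at least 9.56-fold (adjusted p 0.0372, 2.35-fold without proximal replicate 2 and 16.8-fold without proximal replicate 1), but not with the replicate number as a block (adjusted p 0.0563) nor without proximal replicate 2 (adjusted p 0.201), distal replicate 1 (adjusted p 0.126) or distal replicate 2 (adjusted p 0.129). The WENR-plus difference, 121 reads against 4, had a ratio of 30.4 (exact 95% interval 11.6 to 113) and was not called (adjusted p 0.0681). It was called under DESeq2 (adjusted p 0.011), without a filter on low counts (adjusted p 5.95e-10) and without proximal replicate 1 (adjusted p 0.0163), and the ratio was 1.05 without proximal replicate 2. The replicates of a proximal group differed from 3.33-fold to 54.3-fold, against fitted guide and medium differences of 1.31-fold to 2.35-fold in proximal organoids, none of which was called. For the guide in proximal WENR-plus, the log2 fold change of -1.23 was -0.06 without Scramble replicate 1 and -5.94 without Cdx2-sgRNA replicate 2. Aldh1a3, another retinaldehyde dehydrogenase, had 111 reads in proximal Cdx2-sgRNA WENR-minus replicate 2, at most 20 reads in the other 15 libraries, and no call in the main test. Both without a filter on low counts and with the culture as a block it was called higher in WENR-minus in proximal Scramble (adjusted p 0.00198 and 0.00862), proximal Cdx2-sgRNA (0.00239 and 0.0169) and distal Cdx2-sgRNA organoids (0.0322 and 0.0464). Without the filter it was also called higher in proximal than in distal organoids in WENR-minus, with Scramble (adjusted p 0.0164) and with the Cdx2-sgRNA (adjusted p 0.00818). Aldh1a2 had 25 reads in proximal Cdx2-sgRNA WENR-plus replicate 2 and 0 to 2 reads elsewhere, and Crabp2 had 0 to 2 reads in all 16 libraries. Neither entered the main test. Without a filter on low counts Aldh1a2 was called higher in proximal Cdx2-sgRNA WENR-plus than with Scramble (adjusted p 0.0313) and than in distal organoids (adjusted p 0.0314), which rests on the library with 25 reads, and Crabp2 was not called.

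By the rule for likeness of pattern, Adh1 was compared with all tested genes as the most abundant member and Rbp2 as the member with the widest range of group means. The 5 genes most like Adh1 by Pearson correlation of log2 CPM over the 16 libraries were Tnik (0.967), Ndrg2 (0.964), B4galt5 (0.963), Thrb (0.959) and AW551984 (0.957). The 5 most like Rbp2 were Fosl2 (0.984), Fmn1 (0.975), Lmtk2 (0.968), Nptn (0.966) and Etnk1 (0.964). These 16 points share cultures and, in part, animals, and the values are a description only.

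A wider list of 57 other genes of vitamin A uptake, oxidation, storage, transport and response was read in the same fits, of which 38 were tested. This list was also chosen with earlier results of these data known, so its shares beside those of all genes are a description only. With the Cdx2-sgRNA in proximal organoids, 12 of the 38 rose and 11 fell in WENR-minus, where 9.04% of all tested genes rose and 12.1% fell. In WENR-plus 10 rose and 8 fell, against 6.93% and 8.94% of all genes. Both shares of the list were above those of all genes, and with calls in both directions its medians were -0.07 and -0.17 on the log2 scale against 0.00 and -0.05. In distal organoids 1 rose and 2 fell in WENR-minus, against 2.24% and 3.00% of all genes, and none rose and 1 fell in WENR-plus, against 0.137% and 0.124%, with medians of 0.16 and 0.07 against 0.00 and -0.01. Isx, the repressor of Bco1 and Scarb1, was the list member called in all 4 of these comparisons. It was at 401 and 403 CPM with Scramble and 1.26 and 0.846 CPM with the Cdx2-sgRNA in proximal WENR-minus (log2 fold change -8.59, SE 0.28, adjusted p 1.11e-08), and the log2 fold change was -7.33 in proximal WENR-plus (adjusted p 4.81e-08). In distal organoids it went from 258 and 185 CPM to 55.8 and 68.5 CPM in WENR-minus (-1.83, SE 0.20, adjusted p 0.00125) and from 152 and 141 CPM to 16.9 and 20.8 CPM in WENR-plus (-2.96, SE 0.21, adjusted p 0.000194). Isx fell in both regions, by more in proximal (difference -6.76, SE 0.32, adjusted p 3.19e-07 in WENR-minus), and Scarb1 was called in none of the 4 comparisons. Its log2 fold change was 0.02 in proximal WENR-minus (adjusted p 0.964), and it was at 48.9 ± 8.55 CPM (SD, n = 2) with the Cdx2-sgRNA against 32.0 ± 1.60 CPM with Scramble in distal WENR-minus (0.61, adjusted p 0.103). The Bco1 calls for the guide, higher in distal WENR-minus and lower in proximal WENR-plus, were each lost without any 1 of the libraries compared, as given above.

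The other genes named by rule for the guide were the retinol uptake receptor Stra6, the related receptor Stra6l and the aldehyde oxidase Aox1. Stra6 was at 21.9 ± 13.5 CPM (SD, n = 2) in proximal Cdx2-sgRNA WENR-minus libraries against 4 reads with Scramble, a ratio of 208 (exact 95% interval 80.7 to 764, adjusted p 3.77e-05), or 109 without Cdx2-sgRNA replicate 2. It was at 27.3 ± 11.8 against 0.446 ± 0.0450 CPM in WENR-plus (log2 fold change 5.91, SE 0.65, adjusted p 0.000117). Aox1 was at 31.6 ± 0.807 against 0.179 ± 0.0852 CPM in WENR-plus (7.37, SE 0.76, adjusted p 0.000121). Stra6l went the other way, with 2 reads in the Cdx2-sgRNA libraries in WENR-minus and 3 in WENR-plus. It was 142 times as high with Scramble in WENR-minus (exact 95% interval 38.9 to 1175, adjusted p 0.00137, 58.9 without Cdx2-sgRNA replicate 2) and 203 times in WENR-plus (69.0 to 985, adjusted p 0.00103).

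On withdrawal of niche factors, 9 of the 38 list genes rose and none fell in proximal Scramble organoids, where 8.73% of all tested genes rose and 8.24% fell. In proximal Cdx2-sgRNA organoids 5 rose and 3 fell, against 3.42% and 2.98% of all genes. In distal Scramble organoids 12 rose and 4 fell, against 12.2% and 14.2%, and in distal Cdx2-sgRNA organoids 15 rose and 6 fell, against 14.9% and 18.1%. The list medians were 0.05, 0.00, 0.53 and 0.82 on the log2 scale, against -0.06, -0.03, -0.11 and -0.10 over all genes. Dhrs9, a retinol dehydrogenase of differentiated epithelium, went from 2.65 ± 1.85 to 78.1 ± 63.4 CPM in distal Scramble organoids (log2 fold change 4.87, SE 0.90, adjusted p 0.00136) and from 2.88 ± 2.50 to 170 ± 66.8 CPM in distal Cdx2-sgRNA organoids (5.90, SE 0.93, adjusted p 0.000344). In proximal Scramble organoids it rose as well, from 2.67 ± 0.757 to 81.1 ± 29.2 CPM (4.91, SE 0.90, adjusted p 0.00242). Rdh16, of a family of microsomal retinol dehydrogenases, went from 1.45 ± 0.990 to 43.3 ± 1.80 CPM in distal Scramble (4.88, SE 0.57, adjusted p 0.000116), and its close relative Rdh9 from 1.53 ± 0.876 to 47.3 ± 0.146 CPM (4.94, SE 0.59, adjusted p 0.000126), though reads may be split between such relatives. Both rose in distal Cdx2-sgRNA organoids too (4.86 and 5.00, adjusted p 4.56e-05 and 5.5e-05), and in proximal Scramble organoids by 1.49 for Rdh16 (adjusted p 0.0456) and 2.10 for Rdh9 (adjusted p 0.0182). In proximal Cdx2-sgRNA organoids neither these genes nor Dhrs9 were called for the medium. There, in WENR-minus, Dhrs9, Rdh16 and Rdh9 were lower than with Scramble (log2 fold change -2.83, -2.93 and -2.66, adjusted p 0.02, 0.00269 and 0.00714). The aldo-keto reductase gene Akr1b7 rose by 3.27 (SE 0.77, adjusted p 0.00551) in distal Scramble and by 4.04 (SE 0.74, adjusted p 0.000938) in distal Cdx2-sgRNA organoids.

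Between regions, 5 of the 38 list genes were higher and 7 lower in proximal Scramble organoids in WENR-minus, where 2.88% of all tested genes were higher and 3.20% lower, and 5 were higher and 3 lower in WENR-plus, against 0.680% and 1.07%. With the Cdx2-sgRNA 9 were higher and 12 lower in WENR-minus, against 18.1% and 16.5% of all genes, and 8 higher and 8 lower in WENR-plus, against 7.40% and 9.57%. Their medians were -0.18, 0.06, 0.31 and 0.05, against 0.07, 0.00, 0.13 and -0.01 over all genes. Pnliprp2, a lipase that can act on dietary lipids, was lower in proximal organoids in all 4 comparisons, with log2 fold changes of -2.60 and -3.10 with Scramble (adjusted p 0.00276 and 0.00669) and -4.89 with the Cdx2-sgRNA in WENR-plus (adjusted p 7.69e-05). With the Cdx2-sgRNA in WENR-minus, distal organoids had 2624 reads and proximal organoids 3, a ratio of 1191 (exact 95% interval 407 to 5780, adjusted p 7.47e-07) that ran from 743 to 2087 without single libraries. Adh6a, another alcohol dehydrogenase, had 409 reads in distal and 2 in proximal Cdx2-sgRNA organoids in WENR-minus, a ratio of 279 (76.6 to 2308, adjusted p 0.000287), or 163 without proximal replicate 1. Rdh9 was lower there too (log2 fold change -6.03, SE 0.65, adjusted p 3.2e-05), and Aox1 was higher, with 192 reads against 2 (ratio 70.5, 19.2 to 586, adjusted p 0.000255), or 42.1 without proximal replicate 1.

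**Figure D5:**
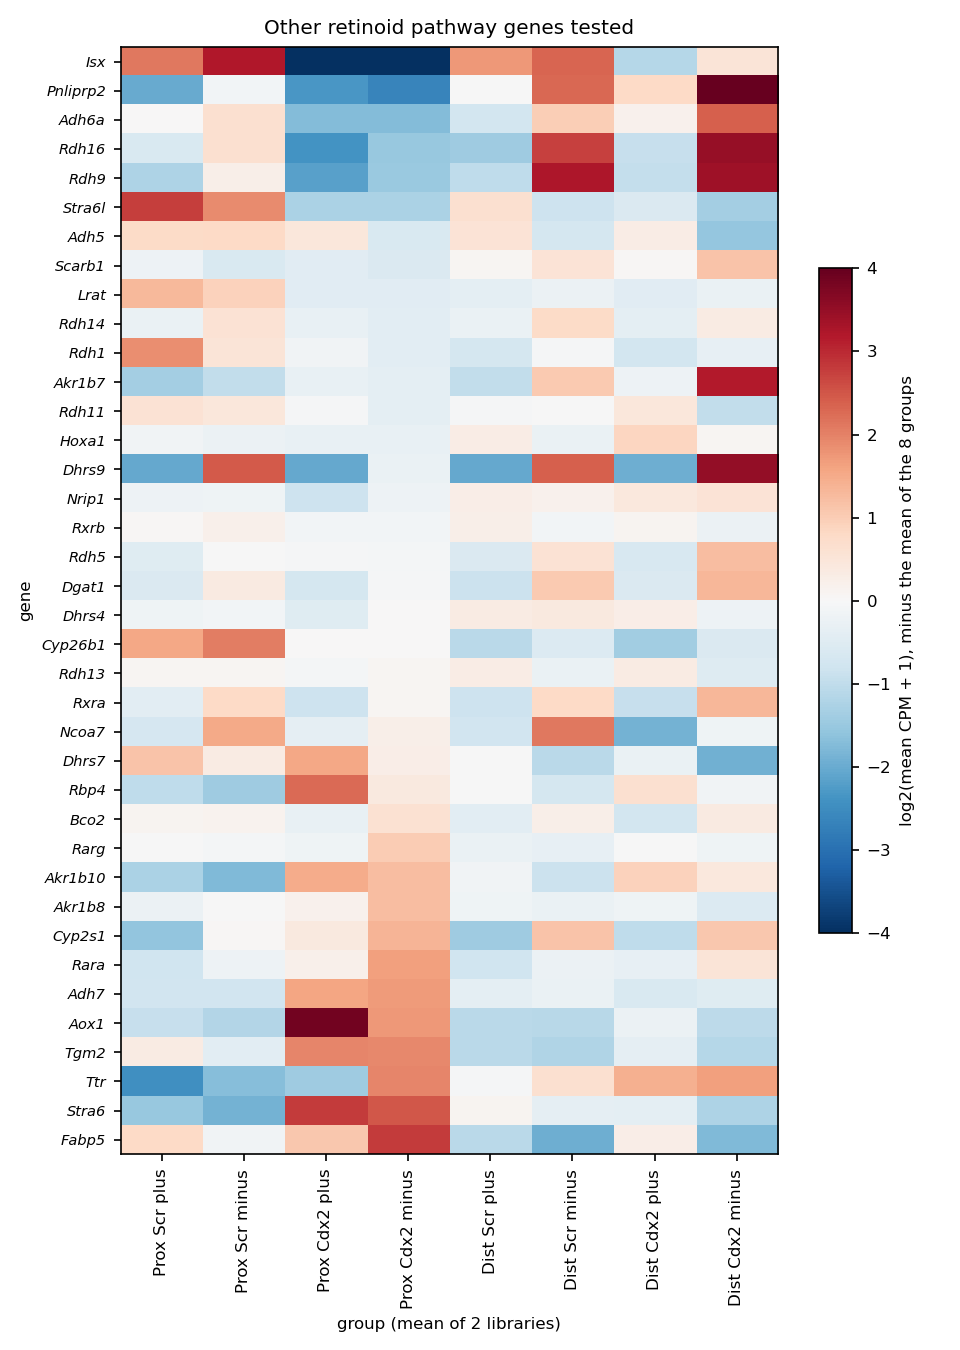
Mean level of the 38 tested genes of the wider list in each of the 8 groups, as log2(mean CPM + 1) minus that gene's mean over the groups (red, higher; blue, lower; colours end at 4 either way; genes ordered by the proximal Cdx2-sgRNA WENR-minus column). Isx is lowest in both proximal Cdx2-sgRNA groups (1.05 and 1.17 CPM), and Dhrs9, Rdh16 and Rdh9 are highest in distal Cdx2-sgRNA WENR-minus.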

How the data were processed

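Expression was measured by RNA-seq in 16 libraries of 8 groups (2 replicates each, numbered as biological replicates in the labels). The labels give the molecule as genomic DNA and the library source as genomic, whereas their protocols and the study's methods describe RNA, and the libraries were read as RNA-seq. The authors prepared libraries with a stranded total RNA kit and quantified them with Salmon (1.1.0 in the submitters' processing notes) on GENCODE vM23 transcripts (mm10). The estimated counts (expected counts) per transcript were made by the authors with Salmon and deposited not scaled between libraries. The authors deposited TPM values too, used here for levels between genes. Of 140748 transcripts, 139864 were matched by identifier to GENCODE vM21, and the rest, with 0.257 to 0.509% of a library's reads, were left out. Estimated counts were summed per gene and rounded. Mitochondrial ribosomal RNA took 15.4 to 28.0% of reads.

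Genes passing edgeR's filterByExpr were fitted in edgeR 4.0.16 (R 4.3.3) with TMM scaling and a quasi-likelihood test over all 16 libraries (8 residual degrees of freedom), with Benjamini-Hochberg adjustment per contrast. Standard errors are the log2 fold change over the root of F. A fold against a group at 0 reads is a limit, with the group set at 3 reads per library, and against 1 to 3 reads per library it is a ratio of summed reads per summed library size with an exact (Clopper-Pearson) 95% interval. P-values measure the spread between cultures of 2 mice only. For several members those of the fit without a filter on low counts were far smaller at nearly the same fold changes. Calls of that fit are given as a dependence on the filter, and the cause was not tested. Pairing was checked by correlating replicate deviations, which were shared within a culture across media (0.281 to 0.589) and not between cultures. The main fit counts the 2 media of a culture as separate libraries, also in its 8 residual degrees of freedom. The culture block was fitted only for contrasts of medium effects, so guide and region p-values do not account for this sharing. Alternatives were RLE factors, DESeq2 1.42.0, other count filters, length-scaled counts, blocks, subsets and leaving out each library. Pathway genes named were those called and reaching 5 CPM in a group compared, the 4 with the largest change per kind of comparison. The members and lists were chosen with earlier results of these data known.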

Additional observations from a re-analysis of the deposited data

Results flagged for a closer look

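The 9 differences listed here between 2 effects under the same contrast each passed a test of the difference itself (edgeR quasi-likelihood test, Benjamini-Hochberg adjustment) and have been described above. The Cdx2-sgRNA effect in proximal organoids minus that in distal organoids, in WENR-minus, was -3.08 for Adh1, 2.31 for Dhrs3, 1.55 for Aldh1a1, -3.93 for Rbp2 and -2.96 for Bco1 on the log2 scale, and in WENR-plus it was -3.36 for Bco1. The WENR-minus effect on Dhrs3 was greater with the Cdx2-sgRNA than with Scramble in proximal organoids, by 2.72. In Cdx2-sgRNA organoids, the WENR-minus effect in proximal minus that in distal was 2.88 for Dhrs3 and -1.86 for Adh1, in a test added after the values had been seen. Groups of 2 were not searched for a library far from the others.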

How the results depend on the processing

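No called fold change turned its direction under any alternative run. Of 1060 recomputed values for 86 named results, 960 kept their direction and their side of the threshold, 68 lost a call, 16 gained one and 16 turned direction, the last for 11 differences not called in the main test. The number of members called changed by more than 1.5 times as follows. A minimum of 10 counts in every library, which removes low genes such as Rbp2, Bco1 and Rarb from the test, left 10202 genes and 0 of 2 calls for the guide in distal WENR-minus, 1 of 2, 2 of 4 and 2 of 4 for the medium in proximal Scramble, distal Scramble and distal Cdx2-sgRNA, 3 of 6 for the region with the Cdx2-sgRNA in WENR-minus, and 3 of 5 and 0 of 1 for the regional difference in guide effect in WENR-minus and WENR-plus. Without a filter on low counts, where 27429 genes were tested and more of them called in each of these comparisons, there was 1 call in place of 0 for the guide in distal WENR-plus (586 of all genes in place of 40), 5 in place of 3 for the medium in proximal Cdx2-sgRNA, 4 in place of 1 and 2 in place of 0 for the region with Scramble in WENR-minus (1619 in place of 929) and WENR-plus (1039 in place of 267), 7 in place of 4 for the region with the Cdx2-sgRNA in WENR-plus, 3 in place of 1 for the regional difference in WENR-plus, and 2 in place of 1 for the guide difference in medium effect in proximal organoids; the cause was not tested. DESeq2 gave 2 in place of 1 and 2 in place of 0 for the region with Scramble, and 3 in place of 1 for the regional difference in WENR-plus.

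A fit of only the libraries compared gave 1 of 2 calls for the guide in distal WENR-minus, 0 of 3 for the medium in proximal Cdx2-sgRNA, where none of 13518 genes was called, 2 in place of 1 and 2 in place of 0 for the region with Scramble, and 0 of 1 for the regional difference in WENR-plus. Length-scaled counts gave 1 of 2 calls for the added regional difference in medium effect. The replicate numbers pair libraries of a culture across media (r of the deviations 0.281 to 0.589), but not cultures with each other (-0.0594 to 0.189). With the replicate number as a block, the regional difference in WENR-plus had 2 calls in place of 1 and the added difference 1 in place of 2, and the other counts stayed within 1.5 times. The culture block, chosen after seeing the data, gave 5 in place of 3 for the medium in proximal Cdx2-sgRNA and 2 in place of 1 for the guide difference in medium effect in proximal organoids. Leaving out 1 library at a time gave 1 to 2 calls for the guide in proximal WENR-plus (3 with all libraries), 0 to 1 in distal WENR-minus (2), 1 to 3 for the medium in proximal Cdx2-sgRNA (3), 2 to 4 in distal Scramble (4), 0 to 2 for the region with Scramble in WENR-minus (1), 3 to 4 and 0 to 2 for the regional difference in WENR-minus (5) and WENR-plus (1), and 1 to 3 for the added difference (2). A group left with 1 library was taken to vary like the others. RLE size factors, the fit without mitochondrial ribosomal RNA (chosen after seeing the data) and no fold threshold moved no count by over 1.5 times. Depth limits the low members: Crabp2, Aldh1a2, Bco1, Aldh1a3 and Rarb had at most 2, 25, 101, 111 and 243 reads in a library.

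The 11 differences that turned direction did so when single libraries were left out, and the log2 fold changes then ran as follows. For the guide, Rbp2 ran from -0.57 to 2.35, Rdh10 from -0.3 to 0.79 and Rarb from -3.26 to 0.07 in proximal WENR-minus, Dhrs3 from -0.03 to 0.22 in proximal WENR-plus, and Aldh1a1 from -0.67 to 0.1 in distal WENR-plus. For the medium, Rarb ran from -1.64 to 0.76 in proximal Scramble and from -2.44 to 4.31 in proximal Cdx2-sgRNA, where the culture block gave 0.01, and Dhrs3 from -0.26 to 0.03 in distal Scramble. For the region, Rdh10 ran from -0.3 to 0.1 with Scramble in WENR-minus and from -0.18 to 0.91 with the Cdx2-sgRNA in WENR-minus, and Dhrs3 from -0.07 to 0.19 with Scramble in WENR-plus. The cause was not tested.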
